A study of Mus musculus with 6 samples.

Results

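The glycerolipid acyltransferases and lipins are the enzymes that build triglyceride from glycerol-3-phosphate. They were taken as 10 genes by symbol, namely Gpam, Agpat1 to Agpat5, Lpin1, Lpin2, Dgat1 and Dgat2, out of 45777 genes in the count table. All 10 were found and all 10 passed the filter on low counts, which left 16707 genes to test. Messenger RNA was measured by RNA-seq in brown adipose tissue of male wild type C57Bl6/J mice, 3 injected intraperitoneally with PBS (phosphate-buffered saline, the control) and 3 with Rb2, a ginsenoside (a saponin of ginseng), for 2 weeks. The labels used here state neither dose nor age. The libraries carry the table's own numbers, PBS 1, 2 and 4 and Rb2 1, 3 and 4.

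Triglyceride is made by adding acyl chains to a glycerol backbone in turn. A glycerol-3-phosphate acyltransferase adds the first chain, and an acylglycerol-phosphate acyltransferase (AGPAT) adds the second, which yields phosphatidic acid. A lipin then removes the phosphate to give diacylglycerol, and a diacylglycerol acyltransferase (DGAT) adds the last chain. In brown fat the product fills many small droplets, whose fatty acids fuel heat production. Phosphatidic acid and diacylglycerol are also the branch points to the membrane phospholipids.

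Total counts ran from 83642183 to 92666780 per library. The 10 genes had between 146 counts (Agpat4 in Rb2 1) and 160559 counts (Dgat2 in Rb2 4) in a library. Levels are given as CPM, counts scaled to a common library size after TMM scaling (a factor per library under which most genes are taken as equal). The brown fat label was met by Ucp1 at 2928 to 4770.2 CPM and Cidea at 1535 to 2376 CPM. Summed over 8 adipocyte markers the level was 17106 to 18552 CPM in PBS mice and 15785 to 19648 CPM in Rb2 mice, and none of the 8 passed the test (none at an unadjusted p under 0.05, none in DESeq2 or limma-voom). Some endothelial and macrophage markers fell, against 5.11% of all tested genes called lower. For endothelial markers these were 4 of 8 (summed 1334 to 1471 CPM with PBS, 724 to 1074 CPM in Rb2 mice). For macrophage markers they were also 4 of 8 (75.5 to 97.1 and 48.4 to 63.2 CPM), with 2 in limma-voom. Of 7 fibroblast and progenitor markers none passed in edgeR or limma-voom (4 at an unadjusted p under 0.05, and 4 lower in DESeq2; 384 to 526 and 275 to 383 CPM). The 12 skeletal muscle markers summed to 7.23 to 6631 CPM with PBS, highest in PBS 2 and PBS 1, and 0.779 to 410.4 CPM in Rb2 mice. None of the 12 passed in any of the 3 tools or at an unadjusted p under 0.05. Of 5 tested white fat markers none passed either, also without adjustment (49.7 to 294 and 29.9 to 81.7 CPM; Hoxc10 was at 0 counts). The part of these cells in the results below was not tested unless a value is given.

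Of the 10 genes, Agpat2 fell and Lpin1 rose, and the other 8 did not pass the test (edgeR, with p adjusted by Benjamini-Hochberg over all genes tested, threshold 0.05). These 2 calls among 10 compare with 10.4% of all tested genes (5.33% higher and 5.11% lower), and 1 call in each direction is too few to set apart from that background. Of all genes 1743 were called, 890 higher and 853 lower (51.1% higher, or 38.7% with library size alone as scaling). Leaving out PBS 1 brought that total to 334 and leaving out PBS 2 to 303, while the fits lacking Rb2 1 or Rb2 3 gave 548 and 601. The groups did not overlap in 4 of the 10 genes, Agpat2 and Agpat4 lower and Lpin1 and Dgat2 higher, against 35.8% of all genes. The median log2 fold change of the 10 was 0.05, against -0.01 over all genes, with 5 values above 0 and 5 below. At an unadjusted p under 0.05 there were 5 of the 10, against 30.0% of all genes.

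**Figure D1:**
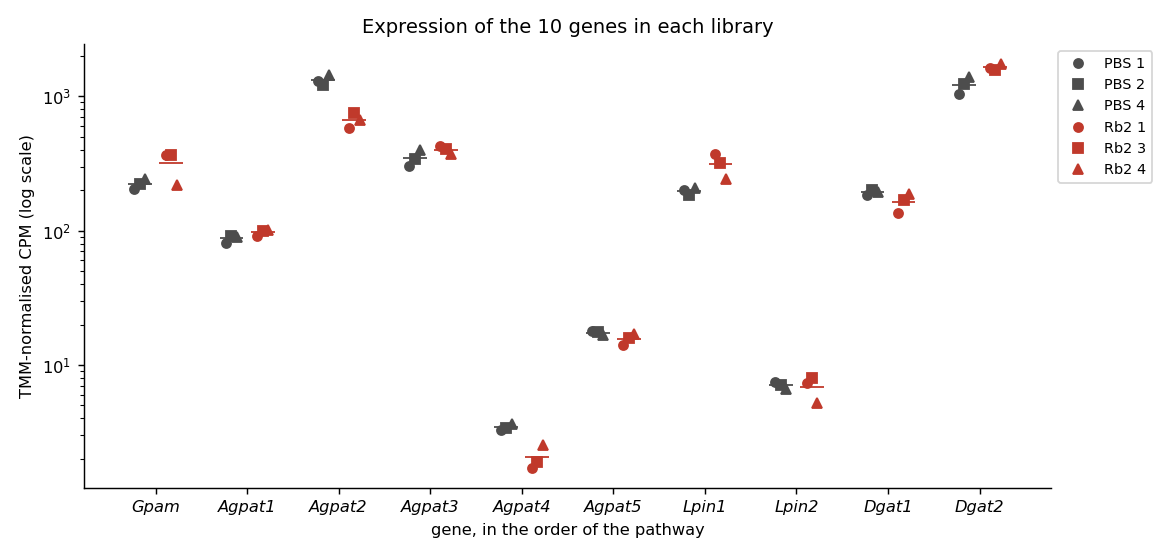
TMM-normalised CPM (log scale) of each gene in the 3 PBS libraries (grey) and the 3 Rb2 libraries (red); each symbol is 1 library and the short lines are group means. Agpat2 is lower in all 3 Rb2 libraries (577 to 749 CPM against 1220.3 to 1431), Lpin1 is higher in all 3, and Gpam in Rb2 4 lies among the PBS libraries.

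The RefSeq promoter windows of both called genes are shown because these genes changed in opposite directions. Each window runs from 250 bases before a transcription start to 50 after it, and is printed 5′ to 3′ along the gene's strand. Capitals mark matches, on either strand, to 1 of 7 short motifs: the E-box spelled CACGTG, the promoter box spelled CCAAT, the box of Sp-family factors spelled GGGCGG, the TATA-type box spelled TATAAA, the nuclear receptor core motif spelled AGGTCA, the cAMP response element spelled TGACGTCA and the D-box spelled TTATGTAA. Coordinates are those of GRCm38.p6, minus strand for both.
Agpat2, chr2:26604368-26604667: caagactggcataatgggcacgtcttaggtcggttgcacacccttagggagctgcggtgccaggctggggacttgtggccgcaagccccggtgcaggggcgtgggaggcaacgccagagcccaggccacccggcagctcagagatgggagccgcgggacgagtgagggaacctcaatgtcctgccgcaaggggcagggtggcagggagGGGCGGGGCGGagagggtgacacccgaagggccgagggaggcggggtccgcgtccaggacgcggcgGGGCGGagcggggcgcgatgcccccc
Lpin1, chr12:16610917-16611216: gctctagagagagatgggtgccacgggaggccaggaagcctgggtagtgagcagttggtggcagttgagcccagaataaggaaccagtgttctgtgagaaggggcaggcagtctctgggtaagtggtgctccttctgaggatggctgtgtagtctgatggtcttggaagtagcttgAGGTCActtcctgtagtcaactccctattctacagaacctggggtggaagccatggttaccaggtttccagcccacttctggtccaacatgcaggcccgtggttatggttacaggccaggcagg
The Agpat2 window held 3 matches to the Sp-family box, beginning at bases 209, 214 and 275 of the window, of which the first and second share 1 base. Of 32851 RefSeq windows of the same length, 35.7% held one. The Lpin1 window held 1 nuclear receptor core motif, at base 177, which is present in 16.3% of windows. The other motifs were in 37.4% (CCAAT), 13.6% (the TATA-type box), 7.15% (the E-box), 1.79% (the cAMP response element) and 0.938% (the D-box) of all windows, and in neither printed window. The Agpat2 window was 72.0% G and C with 26 CpG dinucleotides, and the Lpin1 window 55.3% with 2, against medians of 52.7% and 7 over all windows. The Agpat2 window lies at the gene's 5′ end, but the Lpin1 window lies at an internal start, well inside the gene, so these compositions are not of matched positions. The counts do not separate transcripts by start. The table held windows for 7 of the 10 genes and none for Agpat5, Dgat1 and Dgat2.

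Gpam encodes the glycerol-3-phosphate acyltransferase of the outer mitochondrial membrane, which starts the pathway (NCBI gene 14732; GRCm38.p6 chromosome 19, 55067635 to 55127319). Its level was 204, 222 and 244 CPM in PBS 1, 2 and 4, and 365, 364 and 219 CPM in Rb2 1, 3 and 4. Rb2 1 and Rb2 3 were above every PBS library, and Rb2 4 lay between PBS 1 and PBS 2. The log2 fold change was 0.50 ± 0.20 (SE; 95% interval 0.04 to 0.96), which did not pass (adjusted p = 0.137). Without Rb2 4 it was 0.70 and passed (adjusted p = 0.0191), the only 1 of 18 alternative settings in which it did. Without Rb2 1 or Rb2 3 it was 0.39 (adjusted p = 0.332 and 0.337). The spread among Rb2 mice (coefficient of variation 26.7%) was wider than among PBS mice (9.05%).

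Other genes that can start the pathway, in a list of 14 further synthesis enzymes, did not pass. Gpat4, an acyltransferase of the endoplasmic reticulum, was at 227 CPM in PBS mice and 295 CPM in Rb2 mice without overlap (log2 fold change 0.38, adjusted p = 0.147). Gpat3, its close relative, was at 10.9 and 10.8 CPM (-0.01, adjusted p = 0.984). Gpat2 had no count in any library.

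The AGPAT step held the largest change among the 10. Agpat2, whose loss causes a generalized lack of fat tissue in people and mice (gene 67512; chromosome 2, 26593057 to 26604417), was at 1303, 1220.3 and 1431 CPM in PBS 1, 2 and 4. In Rb2 1, 3 and 4 it was at 577, 749 and 669 CPM. Every Rb2 library was well below every PBS library. The level fell by 49.5% (log2 fold change -0.99 ± 0.16 SE, 95% interval -1.34 to -0.63, adjusted p = 0.00984), and ranked 198 by p among the 16707 genes. In a bulk sample fewer cells of a type and less RNA per cell cannot be told apart. The call was kept whichever 1 library was left out (adjusted p 0.0133 to 0.045). It was also kept with the muscle markers as a covariate (-0.97, adjusted p = 0.0189) and with GC content and length as an offset (-0.70, adjusted p = 0.0273). It was lost when PBS 1 and PBS 2 were both left out, at a value of -1.10 (adjusted p = 0.23). That fit has 1 PBS library, assumed to vary like the Rb2 ones, and edgeR then called no gene, with 2063 genes at an unadjusted p under 0.05.

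Agpat1 and Agpat3 were not lower with Rb2. Agpat1, a widely expressed enzyme of the endoplasmic reticulum (gene 55979; chromosome 17, 34604195 to 34613449), was at 80.9, 91.3 and 90.2 CPM in PBS mice and 91.0, 98.8 and 101 CPM in Rb2 mice. These ranges touch, and the log2 fold change was 0.15 (95% interval -0.13 to 0.43, adjusted p = 0.444). Agpat1 passed, upward, once GC content and length were offset (0.42, adjusted p = 0.0374), the only 1 of the 18 alternatives in which it did. Agpat3, the second most abundant of the 5 (gene 28169; chromosome 10, 78269174 to 78352497), was at 300.4, 344 and 397 CPM in PBS mice and 426, 403 and 369 CPM in Rb2 mice. It was lowest in PBS 1, and the groups overlapped (0.20, 95% interval -0.14 to 0.54, adjusted p = 0.403). Both intervals lie wholly above that of Agpat2.

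Agpat4 and Agpat5 were rare. Agpat4 (gene 68262; chromosome 17, 12118485 to 12219649) was at 3.28, 3.37 and 3.64 CPM in PBS mice and 1.72, 1.89 and 2.55 CPM in Rb2 mice, or 266 to 356 and 146 to 236 counts. All 3 Rb2 libraries were below the PBS ones, but the log2 fold change of -0.74 ± 0.22 (SE) did not pass (adjusted p = 0.0589). DESeq2 did call it (adjusted p = 0.0143), as did edgeR with a count minimum of 50 (adjusted p = 0.045) and without Rb2 4 (-0.93, adjusted p = 0.0311). With the threshold of 0.1, these were the 4 of 18 alternatives in which it passed. Agpat5 (gene 52123; chromosome 8, 18846279 to 18884413), at 16.7 to 17.8 CPM in PBS mice and 14.1 to 17.1 CPM in Rb2 mice, overlapped between the groups (-0.14, 95% interval -0.42 to 0.14, adjusted p = 0.466).

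**Figure D2:**
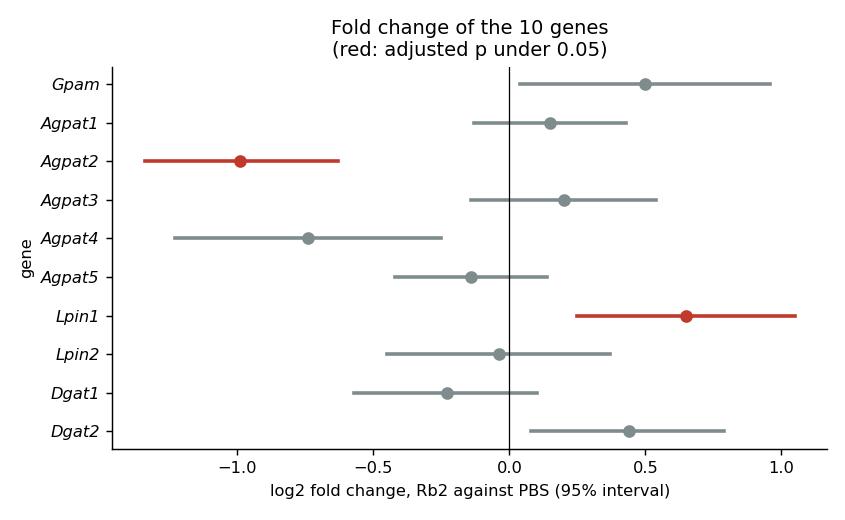
Log2 fold change of Rb2 against PBS for the 10 genes (points) with 95% intervals from the edgeR fit (bars); red marks an adjusted p under 0.05. Agpat2 (-0.99) and Lpin1 (0.65) are the 2 red genes, and the intervals of Gpam, Agpat4 and Dgat2 exclude 0 before adjustment without passing after it.

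Agpat2 was by far the most abundant AGPAT transcript, so its fall also lowered its share of the step. Per kilobase of exon (GENCODE M21 lengths), Agpat2 supplied 89.9%, 88.1% and 88.9% of the summed AGPAT level in PBS 1, 2 and 4. It supplied 75.7%, 80.2% and 79.0% in Rb2 1, 3 and 4. All Rb2 shares were below all PBS shares, a difference of means of -10.7 percentage points (exact two-sided permutation test, p = 0.1, the smallest that 3 against 3 can give). Agpat3 went from 6.40% ± 0.636 (SD, n = 3) to 13.0% ± 1.98, and Agpat1 from 4.21% ± 0.408 to 8.16% ± 0.558. With Rb2 these are shares of a smaller sum. The mean levels themselves were 347 and 399 CPM for Agpat3 and 87.5 and 97.0 CPM for Agpat1, with overlap, and neither gene passed. Agpat4 and Agpat5 together stayed under 1% in each library. With counts not divided by length the mean share of Agpat2 was 74.3% with PBS and 56.3% with Rb2, and with coding length 78.7% and 62.1%. The 5 genes summed to 695 ± 54.2 CPM per kilobase with PBS and 398 ± 40.3 with Rb2, a ratio of 0.572 (exact permutation p = 0.1). Without Agpat2 the sum of the other 4 was 76.6 ± 7.79 and 85.8 ± 1.91 (exact permutation p = 0.2). The share of Agpat2 and the sum of the 5 had to separate, since Agpat2 was most of the sum and far lower in every Rb2 library. Their exact permutation p of 0.1 was thus fixed by the Agpat2 values and adds nothing to them.

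**Figure D3:**
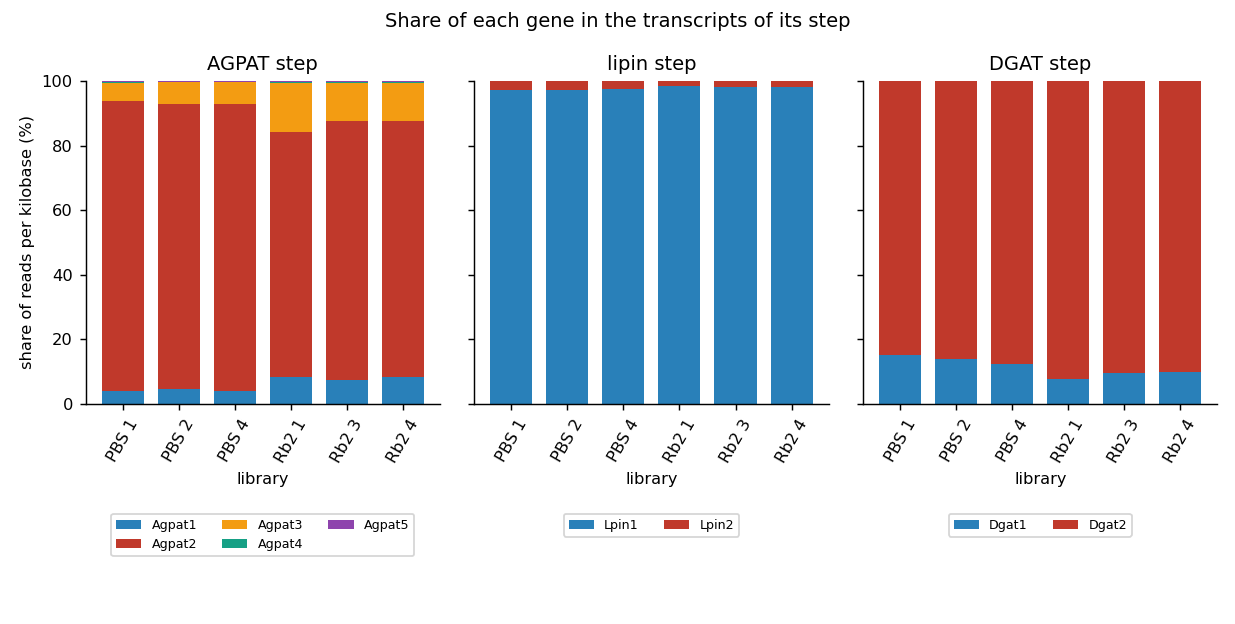
Share of each gene (percent) in the summed reads per kilobase of its step, 1 stacked bar per library, for the AGPAT, lipin and DGAT steps. The Agpat2 share is 88.1% to 89.9% in the PBS libraries and 75.7% to 80.2% in the Rb2 libraries, and the Dgat2 share is higher in all 3 Rb2 libraries.

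Lpin1 encodes lipin-1, a phosphatidic acid phosphatase that also acts in the nucleus as a partner of transcription factors, and whose mutation underlies the fatty liver dystrophy (fld) mouse (gene 14245; chromosome 12, 16535669 to 16653903). It was at 202, 184 and 208 CPM in PBS 1, 2 and 4. In Rb2 1, 3 and 4 it was at 375, 318 and 241 CPM. The PBS libraries were close together, and the Rb2 libraries were all above them but spread, with Rb2 4 nearest to PBS. The level rose by 57.0% (log2 fold change 0.65 ± 0.18 SE, 95% interval 0.25 to 1.05, adjusted p = 0.0467), just inside the threshold. The call was lost without PBS 1 (0.67, adjusted p = 0.126), PBS 2 (0.60, adjusted p = 0.17), PBS 4 (0.67, adjusted p = 0.0849), Rb2 1 (0.50, adjusted p = 0.121) or Rb2 3 (0.64, adjusted p = 0.123), and was kept without Rb2 4 (0.80, adjusted p = 0.014). It was also lost with library size alone (0.56, adjusted p = 0.0722), upper-quartile scaling (adjusted p = 0.0511), limma-voom (adjusted p = 0.0664) and the muscle covariate (0.54, adjusted p = 0.104). Every one of the 18 alternatives gave a value above 0, from 0.50 to 0.80.

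Lpin2, the relative of Lpin1 known for its role in liver (gene 64898; chromosome 17, 71183532 to 71249818), was low. It was at 7.46, 7.04 and 6.60 CPM in PBS mice and 7.32, 7.99 and 5.19 CPM in Rb2 mice, with Rb2 3 the highest and Rb2 4 the lowest of all 6. Its log2 fold change was -0.04 (95% interval -0.45 to 0.37, adjusted p = 0.898), and its sign changed with the libraries used. Lpin1 supplied 97.3% ± 0.258 (SD, n = 3) of the lipin reads per kilobase of both genes with PBS and 98.3% ± 0.216 with Rb2, without overlap (exact two-sided permutation p = 0.1, the smallest possible). Lpin1 itself was already higher in every Rb2 library, so the share adds little to its values. Lpin3, the remaining lipin, was at 3.78 and 3.99 CPM (0.08, adjusted p = 0.832). Cnep1r1, a subunit of the phosphatase that acts on lipins, rose from 18.8 ± 1.86 to 25.9 ± 1.80 CPM (0.46 ± 0.13 SE, adjusted p = 0.0487), while its catalytic partner Ctdnep1 was at 66.4 and 62.7 CPM (-0.08, adjusted p = 0.72). The Cnep1r1 call was kept without Rb2 4 (adjusted p = 0.0458) and lost in the other 5 fits that left out 1 library (adjusted p up to 0.198). It passed in 4 of the 18 alternatives, and was also lost under each other scaling (adjusted p 0.0509 to 0.0806), without a filter (0.0552), in limma-voom (0.0592), with the muscle covariate (0.0861) and once GC content and length were offset (0.31, adjusted p = 0.0993).

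The DGAT genes encode unrelated enzymes for the same reaction, and neither passed in the reported fit. Dgat2, the isoform tied to lipid droplets (gene 67800; chromosome 7, 99153663 to 99182713), was at 1039.9, 1232 and 1382 CPM in PBS mice and 1627, 1579 and 1735 CPM in Rb2 mice. All Rb2 libraries were above all PBS libraries, and PBS 1 was the lowest. The log2 fold change was 0.44 ± 0.16 (SE; 95% interval 0.08 to 0.79), which did not pass (adjusted p = 0.104). DESeq2 did call it (0.43, adjusted p = 0.0166), as did edgeR once GC content and length were offset (0.62, adjusted p = 0.0306). These were the only 2 of the 18 alternatives in which it passed. Dgat1, of the endoplasmic reticulum (gene 13350; chromosome 15, 76502012 to 76512021), was at 185, 199 and 194 CPM in PBS mice and 136, 168 and 187 CPM in Rb2 mice. Rb2 4 fell within the PBS range, and the log2 fold change of -0.23 (95% interval -0.57 to 0.10) did not pass (adjusted p = 0.321). With GC content and length offset, the Dgat1 value was -0.03 (adjusted p = 0.892). The Dgat2 share of both genes' reads per kilobase was 84.8%, 86.0% and 87.6% in the PBS libraries. It was 92.2%, 90.3% and 90.2% in those of Rb2 mice. These shares did not overlap (difference 4.78 percentage points, exact two-sided permutation p = 0.1, the smallest possible). Dgat2 itself was already higher in every Rb2 library, so the shares add little to its values.

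Ordered by reads per kilobase, the leading transcript of the pathway differed between the groups. Agpat2 was the highest and Dgat2 the second of the 10 in each PBS library, and the order was the reverse in each Rb2 library. The ratio of Agpat2 to Dgat2 was 1.81, 1.43 and 1.50 in the PBS libraries, compared to 0.513, 0.687 and 0.558 in those of Rb2 mice. These ratios had to separate, since Agpat2 was lower and Dgat2 higher in every Rb2 library than in every PBS library. Their exact permutation p of 0.1 was thus fixed by the separate values and adds nothing to them. With coding length these leading genes kept that order, with Agpat2 at 1463 to 1715 CPM per coding kilobase in PBS libraries and Dgat2 at 893 to 1187, against 692 to 898 and 1356 to 1491 in Rb2 libraries. In CPM not divided by length they did not, since Dgat2 (1232 CPM) was already above Agpat2 (1220.3 CPM) in PBS 2. Below them, by exon length, came Dgat1, at 63.0 ± 2.26 CPM per kilobase of exon with PBS and 53.6 ± 8.44 with Rb2, and Agpat3, at 44.6 ± 6.19 and 51.2 ± 3.70. Gpam followed at 33.5 ± 3.03 and 47.4 ± 12.6, then Agpat1 at 29.2 ± 1.91 and 32.3 ± 1.79 and Lpin1 at 20.5 ± 1.30 and 32.2 ± 7.0. By exon length these 5 did not overlap in the PBS libraries. By coding length Agpat3 (266 to 377 CPM per coding kilobase) was instead above Dgat1 (91.1 to 133) in all 6 libraries. Agpat1 (94.6 to 107 by coding length) was then also above Gpam (82.1 to 98.4) in each PBS library, with ranges that overlapped. With Rb2, Dgat1, Agpat3, Gpam, Agpat1 and Lpin1 each overlapped with at least 1 neighbour in the order by exon length. Agpat5 (1.61 and 1.46), Agpat4 (1.27 and 0.761) and Lpin2 (0.575 and 0.558) were the lowest in all 6 libraries.

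**Figure D4:**
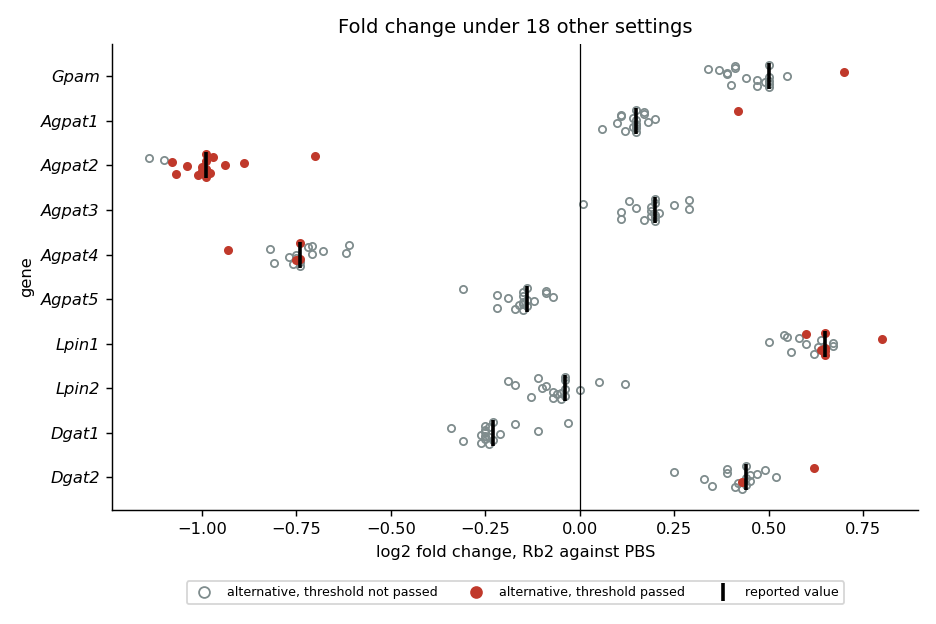
Log2 fold change of each gene as reported (black bar) and under 18 other settings of scaling, test, filter, threshold and libraries (circles; filled red where the threshold was passed). Agpat2 stays between -1.14 and -0.70 and passes in 16 of 18, Lpin1 stays between 0.50 and 0.80 and passes in 7, and Lpin2 crosses 0.

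Around the 10 genes, 62 of 68 further listed pathway genes were tested, of which 6 rose and 3 fell (18 higher and 10 lower at an unadjusted p under 0.05). Over all tested genes 5.33% rose, 5.11% fell and 30.0% had an unadjusted p under 0.05, and nothing particular to these lists is read from their counts. Their median log2 fold change was 0.10. The counts depended on the libraries: 1 rose and none fell when PBS 1 was left out (8 lower at an unadjusted p under 0.05) or when PBS 2 was (5 lower), 1 rose and 2 fell without Rb2 1, 1 and 1 without Rb2 3, and 11 and 4 without Rb2 4. Without PBS 4 they were again 6 and 3.

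**Figure D5:**
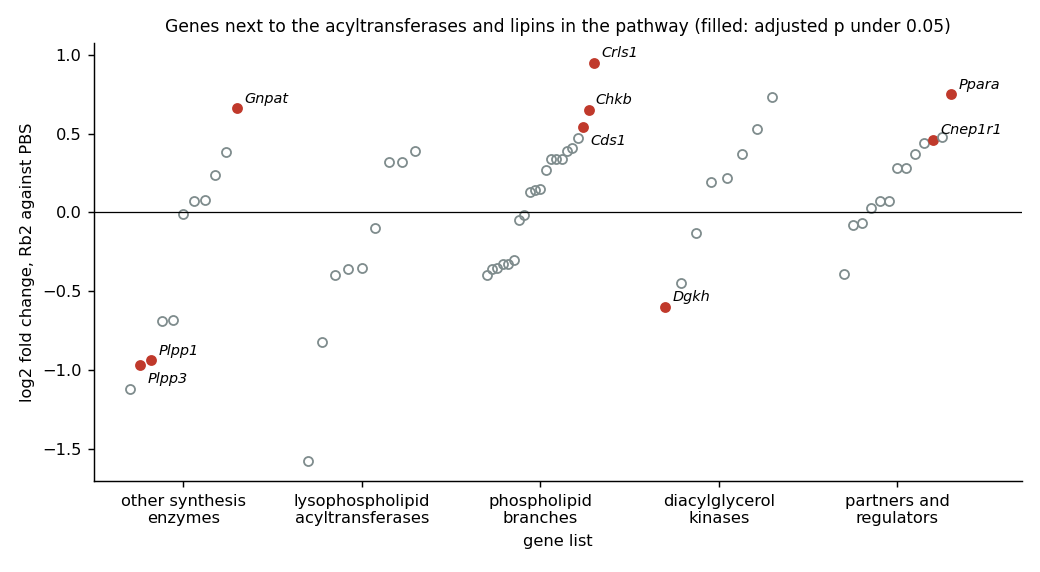
Log2 fold change of Rb2 against PBS for 62 tested genes in 5 lists around the 10 genes; each circle is 1 gene, sorted within its list, and filled red circles with names have an adjusted p under 0.05. Crls1 (0.95) is the largest rise that passed, and Plpp3 (-0.97) and Plpp1 (-0.94) are the largest falls that passed.

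Among 11 tested enzymes of the other synthesis list, 1 rose and 2 fell, against 5.33% and 5.11% of all genes. Plpp1 and Plpp3, phospholipid phosphatases of the cell surface that dephosphorylate phosphatidic and lysophosphatidic acid, were the ones that fell. Plpp3 was at 116, 127 and 112 CPM in PBS mice and 48.2, 57.8 and 75.7 CPM in Rb2 mice (-0.97 ± 0.17 SE, adjusted p = 0.0125). Plpp1 went from 37.0 ± 1.89 to 19.3 ± 4.93 CPM (-0.94 ± 0.18 SE, adjusted p = 0.0175). Both calls were lost without PBS 1 or PBS 2, and that of Plpp3 also without Rb2 3, with adjusted p of at most 0.0723 for Plpp1 and 0.0579 for Plpp3. The summed endothelial, macrophage, and fibroblast and progenitor markers given above were each lower in the same 3 libraries. Past the test were 4 of 8, 4 of 8 and 0 of 7, in that order, and the part of these cells was not tested. Plpp1 shares 115 bases with Mtrex on the opposite strand, and no source used here says whether the counting used strand. Gnpat, which starts ether lipid synthesis in peroxisomes, rose from 152 ± 9.10 to 239 ± 25.1 CPM (0.66 ± 0.14 SE, adjusted p = 0.0221). That call was lost without PBS 1, PBS 2, Rb2 1 or Rb2 3 (adjusted p up to 0.0951). Mogat1, which makes diacylglycerol from monoacylglycerol, was at 9.88 and 4.53 CPM without overlap and did not pass (-1.12, adjusted p = 0.116).

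Of 21 genes on the branches from phosphatidic acid and diacylglycerol to phospholipids, 3 rose and none fell, against 5.33% and 5.11% of all genes. At an unadjusted p under 0.05, 7 were higher and 3 lower, against 30.0% of all genes in either direction. DESeq2 called 3 higher and limma-voom 2, and neither called any lower. Crls1, cardiolipin synthase of the inner mitochondrial membrane, was at 152, 141 and 159 CPM in PBS 1, 2 and 4, with 305, 293 and 274 CPM in Rb2 1, 3 and 4. It rose by 93.3% (0.95 ± 0.13 SE, adjusted p = 0.00613), a call kept whichever 1 library was left out (adjusted p at most 0.0412). Cds1, which makes CDP-diacylglycerol from phosphatidic acid, rose from 13.8 ± 1.07 to 20.1 ± 1.10 CPM (0.54 ± 0.12 SE, adjusted p = 0.0268), while the more abundant Cds2 was at 80.9 and 79.9 CPM (-0.02, adjusted p = 0.94). The other genes between phosphatidic acid and cardiolipin did not pass: Tamm41 (0.13), Pgs1 (-0.36, adjusted p = 0.133) and Ptpmt1 (-0.30, adjusted p = 0.213). Pgs1 and Ptpmt1 were lower in Rb2 mice without overlap, as were 17.6% of all tested genes. Chkb, a choline and ethanolamine kinase, rose from 49.7 ± 9.37 to 77.9 ± 9.25 CPM (0.65 ± 0.16 SE, adjusted p = 0.0354). It shares 3579 bases with the noncoding gene Gm44502 on the same strand, which had 15206 counts in all against 34008 of Chkb, so how reads were split between them is uncertain. The Cds1 and Chkb calls were lost without PBS 1, PBS 2, Rb2 1 or Rb2 3, and that of Chkb also without Rb2 4 (adjusted p up to 0.107 for Cds1 and 0.147 for Chkb). Both were also lost with library size alone (adjusted p = 0.0746 for Cds1 and 0.0809 for Chkb) and with the muscle covariate (0.0564 and 0.0632), and Chkb in limma-voom (0.0528).

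None of 9 lysophospholipid acyltransferases, which remodel phospholipids, passed in edgeR (2 higher and 1 lower at an unadjusted p under 0.05; 1 higher in DESeq2 and none in limma-voom). Mboat7, which acylates lysophosphatidylinositol, was the nearest by p, from 23.1 to 30.2 CPM (0.39, adjusted p = 0.0694). It was chosen after the values were seen. Of 8 diacylglycerol kinases, which turn diacylglycerol back into phosphatidic acid, none rose and 1 fell, against 5.33% and 5.11% of all genes. This was Dgkh, from 20.9 ± 2.55 to 13.8 ± 2.39 CPM (-0.60 ± 0.16 SE, adjusted p = 0.0428). Its call was lost without PBS 1, PBS 2, Rb2 1 or Rb2 3 (adjusted p up to 0.156). It was also lost with library size alone (adjusted p = 0.0571), in limma-voom (0.0604) and with the muscle covariate (-0.50, adjusted p = 0.0896). Dgkd, the most abundant of them in counts, was at 85.1, 93.3 and 89.0 CPM in PBS mice, with 209, 124 and 112 CPM in Rb2 mice. The groups did not overlap, Rb2 1 was well above the other Rb2 libraries, and the gene did not pass (0.73, adjusted p = 0.0665).

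Of 13 partners and regulators of lipins and AGPAT enzymes, 2 rose and none fell, against 5.33% and 5.11% of all genes. DESeq2 called 4 higher and 1 lower, and limma-voom none. Ppara, a nuclear receptor for fatty acids, was at 120.0, 120.1 and 178 CPM in PBS 1, 2 and 4, with 267, 205 and 231 CPM in Rb2 1, 3 and 4 (0.75 ± 0.19 SE, adjusted p = 0.0369). That call was lost without PBS 1, PBS 2, Rb2 1 or Rb2 3 (adjusted p up to 0.142), with library size alone (0.0783) and in limma-voom (0.0518). Without both PBS 1 and PBS 2 the value was 0.40 (adjusted p = 0.556). Cnep1r1, described with the lipins, was the other. Bscl2, which encodes seipin, a droplet assembly protein that binds AGPAT2 and lipin-1, was at 175 and 133 CPM without overlap and did not pass (-0.39, adjusted p = 0.08). Pparg, the main regulator of fat cell formation, was at 160.3 and 207 CPM (0.37, adjusted p = 0.15), and Srebf1, a regulator of lipid synthesis genes, at 139.5 and 147 CPM (0.07, adjusted p = 0.786). Ppargc1a, a coactivator that works with lipin-1 in liver, was at 31.4 and 32.1 CPM (0.03, adjusted p = 0.932).

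The genes whose profile over the 6 libraries was most like that of Agpat2, among 7439 genes with a mean of at least 10 CPM, were C130074G19Rik, Rflnb and Plcb1. Their root mean square differences from Agpat2 were 0.110, 0.118 and 0.127 in centred log2 CPM, and their log2 fold changes -0.82, -0.96 and -0.90. For Lpin1 they were Rhoq, Cdc40 and Mmgt1, with differences of 0.041, 0.043 and 0.054 and log2 fold changes of 0.61, 0.64 and 0.58. These values describe likeness over 6 libraries only.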

How the data were processed

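RNA-seq libraries of brown adipose tissue from 3 PBS and 3 Rb2 mice were used. The values are raw read counts per gene in the table the authors deposited. The submitters' processing notes name mm10 and the tools HISAT2, StringTie, Bowtie2 and Trimmomatic. Their roles, the counting program and its use of strand are not given in the sources. The column numbers cannot be tied to the sample titles, so columns were assigned by group alone.

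Genes were filtered (count minimum 10, total at least 15), scaled by TMM and tested with edgeR 4.0.16 in R 4.3.3 (quasi-likelihood F test, robust), with Benjamini-Hochberg adjustment over 16707 genes and a threshold of 0.05. Standard errors are the fold change (log2) over the square root of F. Means are given ± SD of 3 libraries. Alternatives were DESeq2 1.42.0, limma-voom 3.58.1, 3 other scalings, 2 other filters, a threshold of 0.1, a muscle marker covariate, an offset for GC content and length (splines with 5 degrees of freedom; 94.4% of tested genes had values), a block, each library left out, and PBS 1 with PBS 2 left out. Lengths and GC content come from GENCODE M21, promoters and positions from RefSeq, all GRCm38. Of 118 listed genes besides the 10, 1 was not matched. In the pathway lists every gene past the threshold is named, and others were picked after their values were seen. For Agpat2 and Lpin1 the 3 genes with the closest profile are named. The 10 genes, the lists and the alternatives were chosen with earlier results of these data known. No protein sequences were used.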

Additional observations from a re-analysis of the deposited data

How the results depend on the processing

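Over the 18 alternatives, Agpat2, Lpin1, Gpam, Agpat1, Agpat3, Agpat4, Agpat5, Dgat1 and Dgat2 kept the sign of their log2 fold change. That of Lpin2 turned from -0.04 to 0.00 without PBS 1, 0.12 without Rb2 4 (from -0.17 to 0.12 over the fits that left out 1 library) and 0.05 without both PBS 1 and PBS 2. Agpat2 passed the threshold in 16 of them (not without PBS 1 and PBS 2, nor under the block, -1.14) and Lpin1 in 7. With 1 of the 10 genes higher and 1 lower as reported, no gene was called higher with upper-quartile factors (3 at an unadjusted p under 0.05), library size alone (1), limma-voom (2) or the muscle covariate (1). The DESeq2 Wald test called 2 higher and 2 lower, and the GC and length offset 3 higher. A count minimum of 50 and a threshold of 0.1 each called 2 lower. Leaving out 1 library gave 0 to 2 higher and 1 to 2 lower, 303 to 2269 genes of all, and 1 to 11 higher and 0 to 4 lower pathway genes.

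Of all genes 3309 were called by DESeq2, 956 with the muscle covariate and 3392 at the threshold of 0.1. Of the further pathway genes 2 rose with library size alone, 3 with limma-voom, 10 with DESeq2 (5 fell) and 10 at the threshold of 0.1. Library size alone put the median of all genes at -0.10, against -0.01. Without PBS 1 and PBS 2, edgeR called 0 genes (2063 at an unadjusted p under 0.05), so 0 of the 10 (2 of them lower at an unadjusted p under 0.05) and 0 pathway genes (5 higher and 4 lower). That loss comes with a fit that has 1 PBS library. The other causes were not tested.

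The column numbers are not known to pair mice. A replicate block by column number (1 and 4 occur in both groups) left 96 genes of all, 0 of the 10 (0 higher and 1 lower at an unadjusted p under 0.05) and 0 pathway genes (6 higher and 5 lower), with 1 residual degree of freedom among libraries. The deviations of libraries with the same number had r across genes of -0.197 for number 1 and -0.215 for number 4. Each value rests on 1 library per group, so it cannot decide whether a shared number marks a pair.

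The fall in the Agpat2 share was -18.1 percentage points with counts not divided by length and -16.6 with coding length, and the Lpin1 share rose by 1.28 and 1.27 points. Agpat4 had the fewest counts of the 10, with 146 to 356 per library; how much of its spread is counting error was not tested. Groups of 3 keep every exact permutation p at 0.1 or more.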
